A study of Mus musculus with 4 samples.

Results

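The 7 genes described here encode the inhibitors of cyclin-dependent kinases (CDKs) of the mouse: the Ink4 genes Cdkn2a, Cdkn2b, Cdkn2c and Cdkn2d, and the Cip/Kip genes Cdkn1a, Cdkn1b and Cdkn1c. They were taken by symbol from the 24453 genes of the deposited tables, and all 7 were among the 15336 genes tested. RNA was measured in EpCAM-positive cells sorted from the tongue epithelium of mouse embryos at embryonic day 16, with the circumvallate papilla at the back of the tongue left out. The mutant genotype, Ring1a-/- Ring1bfl/fl K14-Cre+ (2KO below), by its label lacks Ring1 (Ring1a) throughout the animal and carries an allele of Rnf2 (Ring1b) that a Cre recombinase driven by the Krt14 promoter, a promoter of basal epithelial cells, can delete. The other group is labelled control without its alleles, so what both groups share in genotype is not known here. Each group held 2 libraries, and nothing in the labels says that they came from separate embryos; each p-value is thus a measure of the scatter among these 4 libraries alone, and that scatter may be technical.

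CDK inhibitors hold back the cell cycle. Ink4 proteins bind CDK4 and CDK6 and keep them from D-type cyclins, which leaves the retinoblastoma protein active and E2F factors restrained, whereas Cip/Kip proteins bind a wider range of cyclin and CDK complexes. Cdkn2a encodes p16INK4a and, from another first exon and reading frame, ARF, which restrains Mdm2 and so stabilises p53. The locus of Cdkn2a and Cdkn2b is a textbook target of Polycomb repressive complex 1, of which Ring1 and Rnf2 encode the catalytic subunits, and the comparison sets libraries labelled as mutant for both subunits against control libraries.

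Cdkn2a (chr4:89274471-89294653, mm10, minus strand) and Cdkn2b (chr4:89306299-89311039, minus strand) lie 11645 bases apart. The 2 coding transcripts of Cdkn2a start 12461 bases apart and share 575 exonic bases, with 277 bases in the p16INK4a transcript alone and 320 in the ARF transcript alone, so a count per gene cannot be divided between them. Cdkn2c (chr4:109660876-109667189, minus strand) is farther along the same chromosome and Cdkn2d is at chr9:21288410-21291407 (minus strand). Cdkn1a is at chr17:29090976-29100727 (plus strand), Cdkn1b at chr6:134920401-134925513 (plus strand) and Cdkn1c at chr7:143458339-143461050 (minus strand). Exons of an antisense transcript, Gm44732, cover 30.7% of the exonic bases of Cdkn1c, and a gene model on the opposite strand covers 7.7% of those of Cdkn1a. The strand setting of the counting is not given in the sources used here, so both values are uncertain to that extent.

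The sequences upstream of the starts in the Cdkn2a and Cdkn2b locus are shown because Polycomb complexes are known to gather at DNA rich in CG dinucleotides, and that of Cdkn1b because it is the one member that passed the test. They come from RefSeq (GRCm38.p6), run 5′ to 3′, end before the first annotated exon base, and have each CG in capitals. The distal start of Cdkn2a is that of ARF and the proximal start is that of p16INK4a.
Cdkn2a, distal start (chr4:89294654-89294869, minus strand): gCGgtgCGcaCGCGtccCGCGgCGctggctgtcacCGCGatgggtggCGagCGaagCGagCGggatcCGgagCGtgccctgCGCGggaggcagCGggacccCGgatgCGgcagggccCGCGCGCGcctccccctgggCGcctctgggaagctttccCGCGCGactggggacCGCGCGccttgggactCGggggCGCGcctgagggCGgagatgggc
Cdkn2a, proximal start (chr4:89282193-89282442, minus strand): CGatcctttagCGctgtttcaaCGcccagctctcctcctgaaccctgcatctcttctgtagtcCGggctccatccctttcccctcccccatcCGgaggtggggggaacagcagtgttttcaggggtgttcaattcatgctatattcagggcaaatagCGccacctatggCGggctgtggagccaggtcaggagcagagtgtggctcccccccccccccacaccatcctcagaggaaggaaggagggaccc
Cdkn2b (chr4:89311040-89311282, minus strand): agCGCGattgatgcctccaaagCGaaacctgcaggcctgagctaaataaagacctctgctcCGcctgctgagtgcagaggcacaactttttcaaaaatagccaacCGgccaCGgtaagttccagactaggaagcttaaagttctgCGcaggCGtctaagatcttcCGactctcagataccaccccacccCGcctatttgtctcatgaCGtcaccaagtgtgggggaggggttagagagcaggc
Cdkn1b (chr6:134920151-134920400, plus strand): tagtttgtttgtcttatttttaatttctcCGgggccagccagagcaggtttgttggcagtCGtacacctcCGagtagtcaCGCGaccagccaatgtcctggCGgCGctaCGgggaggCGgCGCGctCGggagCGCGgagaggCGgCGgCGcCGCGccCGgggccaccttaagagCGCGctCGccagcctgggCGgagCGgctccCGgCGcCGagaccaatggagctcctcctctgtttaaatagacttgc

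The distal start of Cdkn2a stood in dense CG sequence. Over the window of 250 bases before and 50 after each start, it held 45 CG, more than 98.1% of the 32851 such windows in the table, whose median was 7. The proximal start held 12 (above 60.4% of windows), Cdkn2b 18 (70.3%) and Cdkn1b 30 (88.3%). Among the other windows Cdkn2c held 33 and 8 at its 2 starts, Cdkn2d 22, and Cdkn1a 2 and 23. The words TTTCCCGC, TTTCGCGC, TTTGGCGC and TTTGCCGC, forms of the E2F motif searched on both strands, occurred in 1 of the 9 windows of these genes, the distal start of Cdkn2a, and in 2.26% of all windows. The word GGGCGG, the core of the Sp1 motif, occurred in 7 of the 9 and in 35.66% of all windows. This word and each E2F word contain a CG, and their counts were not separated from CG density. A table entry was matched for 6 of the 7 genes; Cdkn1c is named only.

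The targeted genes did not separate the groups in the direction of a deletion. Ring1 was at 16.8 and 15.0 CPM (counts scaled to the library's total after TMM adjustment) in the 2KO-labelled libraries, against 9.02 and 8.57 CPM in control, and Rnf2 at 62.9 and 62.4 CPM against 34.0 and 51.3 CPM. Neither passed the test (adjusted p = 0.101 and 0.126), although leaving out control replicate 2 put Rnf2 past the threshold, with a log2 fold change of 0.89. A count over a whole gene does not reveal a deleted exon, so every direction below goes by the library labels. Library totals ranged from 16256569 to 20624055 counts, and the ribosomal RNA precursor Rn45s took 20.18% and 22.88% of counts in the 2KO-labelled libraries against 15.34% and 16.68% in control. Of 7 markers of tongue epithelium, all detected, 2 were called lower and none higher, beside 4.92% and 7.0% of all genes tested. Their summed level was 10645 and 11371 CPM in the 2KO-labelled libraries against 15265 and 12541 CPM in control. Most of that sum was Krt5, Krt14 and Krt15, which were lower in both 2KO-labelled libraries than in both control libraries. Epcam, Cdh1, Trp63 and Col17a1 overlapped between groups. Of 10 markers of the suprabasal layers 6 were called lower, beside the same 4.92% of all genes tested. Their sums were 2809 and 2014 CPM against 8517 and 6302 CPM. Sums of 8 endothelial markers were 35.2 and 61.3 CPM against 29.0 and 22.3 CPM, most of it Cdh5 and Pecam1. None of the 8 was called. Cdh5, Pecam1, Emcn and Cldn5 were higher in both 2KO-labelled libraries than in both control libraries, and Kdr, Tek, Tie1 and Erg overlapped between groups. Sums of 6 immune markers were 52.9 and 43.8 CPM against 24.9 and 18.0 CPM. Most of the immune sum was 1 gene, Cd68, called higher at 47.2 and 39.0 CPM against 21.3 and 11.9 CPM, while the macrophage gene Lyz2 was at 0 and 0.148 CPM against 1.57 and 1.06 CPM, and Ptprc, C1qa and Aif1 had too few counts to be tested. Sums of 8 mesenchymal markers were 371 and 327 CPM against 273 and 341 CPM, and those of 8 Schwann cell, neuron and melanocyte markers 23.1 and 27.4 CPM against 34.6 and 29.3 CPM. The 8 skeletal muscle markers summed to 65.7 and 81.2 CPM against 61.8 CPM in control replicate 1 and 421 CPM in control replicate 2, which stood apart. No marker of any list was at 0 in every library. The part of these differences in the results below was not tested.

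The Ink4 genes were higher in each 2KO-labelled library than in each control library, but none of the 4 passed the test across all genes. By comparison 1 Cip/Kip gene, Cdkn1b, fell, and the libraries of the groups overlapped for the other Cip/Kip genes. Called genes made up 11.9% of all genes tested (7.0% higher and 4.92% lower). Both 2KO-labelled libraries lay above both control libraries for 29.0% of all genes tested and below them for 28.7%, or 57.7% in either direction, so a separation of this kind is common in these data. In bulk RNA, fewer cells of a type and less RNA per cell cannot be told apart.

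**Figure D1:**
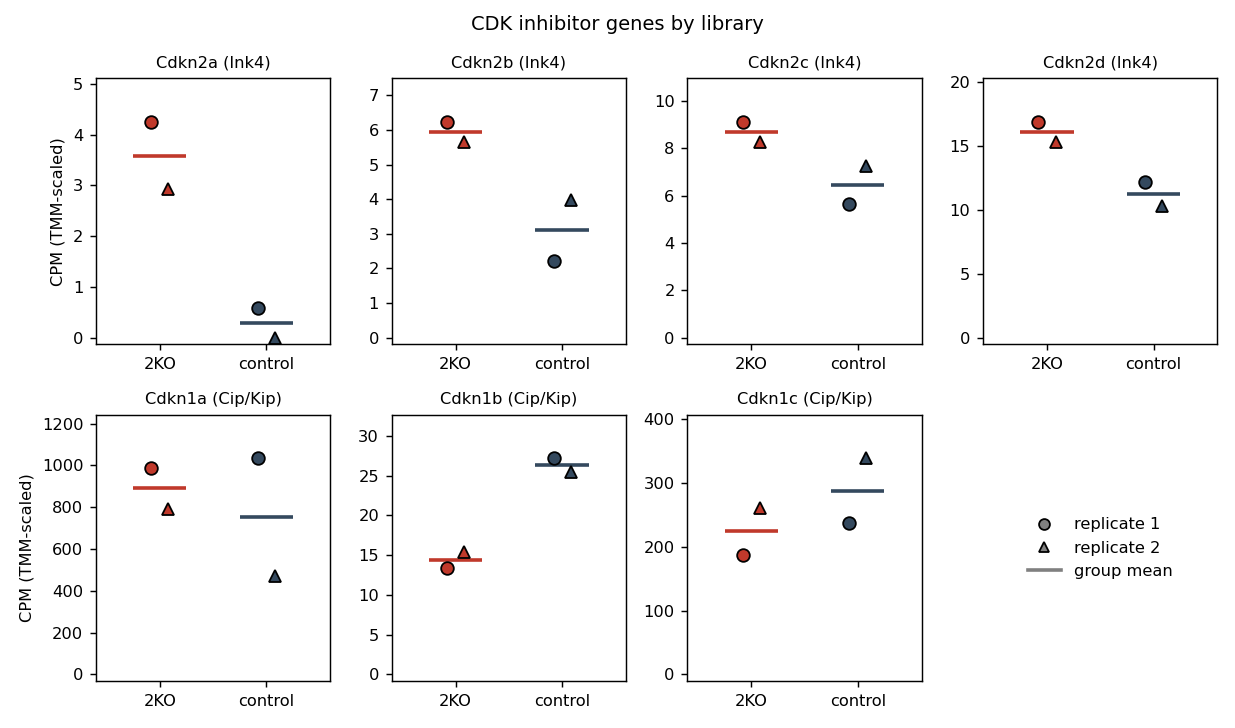
CPM of each CDK inhibitor gene in each library (y axis, TMM-scaled, one scale per gene), with 2KO-labelled libraries on the left and control on the right, points for replicates and bars for group means. The 4 Ink4 genes and Cdkn1b separate the groups, in opposite directions, and Cdkn1a and Cdkn1c do not.

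Cdkn2a was close to absent in control. It had 75 and 59 counts in the 2KO-labelled libraries, against 12 and 0 counts in control. As CPM these were 4.25 and 2.92 in the 2KO-labelled libraries, against 0.588 and 0 in control, where the count of 0 allows up to 0.176 CPM. Both 2KO-labelled libraries were high and the groups did not overlap. The log2 fold change was 3.54 (standard error 1.22, 95% interval 0.86 to 6.22), and 98.14% of tested genes had a lower one. Its control libraries alone would not have met the filter on counts or the filter on mean FPKM. Cdkn2a was thus tested through the libraries where it was high. This rank and its calls after a filter are descriptions, not support. The ratio of summed counts was 11, with a 95% counting interval of 6.12 to 21.9 that covers counting error only. With the spread between libraries the adjusted p was 0.085, so Cdkn2a did not pass. It passed under 5 of 15 alternatives, among them DESeq2 (adjusted p = 0.0168) and no filter on low counts (0.00655). Another of these left out control replicate 1 and so held 1 control library, with a count of 0. Over the alternatives with all 4 libraries its adjusted p ranged from 0.00655 to 0.0943 (limma-voom). It did not pass with either 2KO replicate left out. Without control replicate 1 no control count is left, and the level was then at least 20.1-fold higher against 3 counts in control replicate 2.

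The deposited FPKM values, which are scaled to transcript length, moved more than the counts for this gene. Cdkn2a had 8.50 and 5.01 FPKM in the 2KO-labelled libraries, against 0.477 and 0 FPKM in control. One unscaled CPM of Cdkn2a corresponded to 2.04 and 1.75 FPKM in the 2KO-labelled libraries, against 0.82 FPKM in control replicate 1. That ratio was 2.49 and 2.13 for the 2KO-labelled libraries over control replicate 1, while over 13569 genes with at least 10 counts its median was 1.08 and 1.04, with a 5th to 95th percentile range of 0.807 to 1.39 and 0.78 to 1.34. Which transcripts the FPKM value was assigned to was not tested.

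Cdkn2b, which encodes p15INK4b, a mediator of growth arrest by TGF-beta, lies beside Cdkn2a. It stood at 6.24 and 5.64 CPM in 2KO-labelled libraries, against 2.21 and 3.99 CPM in control. The groups did not overlap and control replicate 1 was lowest. The log2 fold change was 0.94 (standard error 0.56, 95% interval -0.30 to 2.18, adjusted p = 0.313), an interval that runs from 0.815-fold to 4.52-fold. The FPKM summed over Cdkn2a and Cdkn2b was 13.9 and 10.1 in the 2KO-labelled libraries, against 2.41 and 3.78 in control, and it carries the shift in FPKM per CPM of Cdkn2a given above.

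Cdkn2c and Cdkn2d, which encode p18INK4c and p19INK4d, showed smaller differences. Cdkn2c was at 9.13 and 8.26 CPM in 2KO-labelled libraries, against 5.64 and 7.28 CPM in control (log2 fold change 0.43, 95% interval -0.47 to 1.33, adjusted p = 0.547). Cdkn2d was at 16.9 and 15.3 CPM in 2KO-labelled libraries, against 12.2 and 10.3 CPM in control (log2 fold change 0.52, 95% interval -0.14 to 1.17, adjusted p = 0.295). In each case the 2KO-labelled libraries were above both control libraries, and the intervals include no change.

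Cdkn1b encodes p27KIP1, an inhibitor whose protein level is set largely by degradation through the ubiquitin ligase subunit Skp2. It stood at 13.4 and 15.4 CPM in 2KO-labelled libraries, against 27.2 and 25.5 CPM in control. Replicates were close to each other and the groups did not overlap. Cdkn1b fell by a log2 fold change of -0.87 (standard error 0.25, 95% interval -1.43 to -0.31, adjusted p = 0.0488), or to 0.548 of the control level, and 8.464% of tested genes had a lower fold change. The call stands at the threshold: it ended under 9 of 15 alternatives, including RLE scaling (adjusted p = 0.0505) and the omission of 2KO replicate 1 (0.241), 2KO replicate 2 (0.103) or control replicate 1 (0.078), and the adjusted p ranged from 0.0242 to 0.241 over the 15. On deposited FPKM values, at 5.41 and 6.05 in the 2KO-labelled libraries against 9.74 and 8.43 in control, it did not pass (0.132 to 0.202 over the 3 fits). The suprabasal marker sum was lower in the same libraries, as given above, and a relation to Cdkn1b was not tested.

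Cdkn1a encodes p21CIP1, a classical target of p53 and the most abundant CDK inhibitor transcript here. It stood at 990 and 791 CPM in 2KO-labelled libraries, against 1034 and 472 CPM in control. The control libraries lay on either side of both 2KO-labelled libraries. The log2 fold change was 0.24 (standard error 0.28, 95% interval -0.37 to 0.86, adjusted p = 0.63). Control replicate 2 decides the direction: without it the log2 fold change was -0.21, and without control replicate 1 it was 0.94. Only the latter fit called the gene, and with 1 control library it holds no scatter between control libraries. Over the alternatives with all 4 libraries the adjusted p ranged from 0.239 (replicate block) to 0.831 (DESeq2). Control replicate 2 was also the library in which muscle markers summed to 421 CPM, and a relation to Cdkn1a was not tested.

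Cdkn1c encodes p57KIP2, an imprinted inhibitor expressed from the maternal allele. It stood at 187 and 261 CPM in 2KO-labelled libraries, against 236 and 338 CPM in control. The groups overlapped, with 2KO replicate 1 lowest and control replicate 2 highest. The log2 fold change was -0.36 (standard error 0.21, 95% interval -0.82 to 0.10, adjusted p = 0.292). Without control replicate 1 the log2 fold change was -0.57 and the gene was called lower, in a fit with 1 control library. Without control replicate 2 the log2 fold change was -0.07. Over the alternatives with all 4 libraries the adjusted p ranged from 0.13 (replicate block) to 0.632 (limma-trend on log2(FPKM + 1), no filter).

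**Figure D2:**
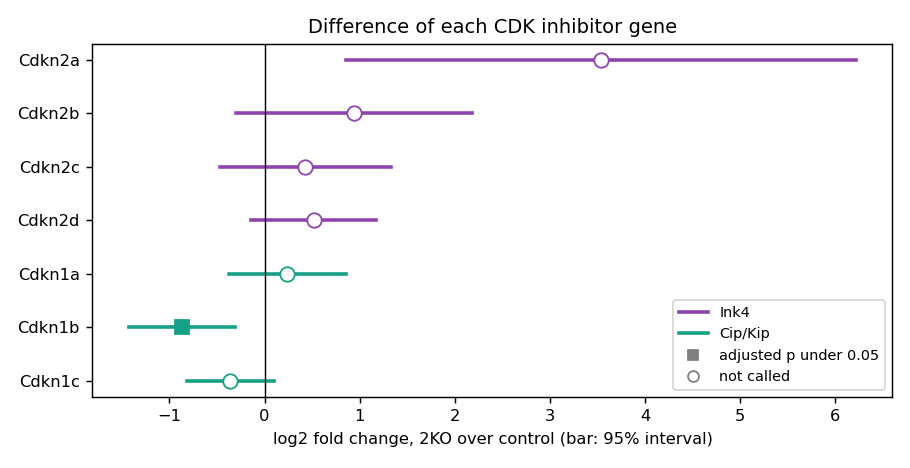
Log2 fold change of each gene, 2KO-labelled over control libraries (x axis), with 95% intervals from edgeR as bars, Ink4 genes in purple and Cip/Kip genes in green. The Ink4 genes lie between 0.43 and 3.54, each uncalled, and Cdkn1b at -0.87 is the one called gene.

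Set side by side, the Ink4 genes had a median log2 fold change of 0.73 (0 of 4 called, 4 of 4 positive) and the Cip/Kip genes one of -0.36 (1 of 3 called, lower, 1 of 3 positive), beside 0.0065 over all genes tested. Of all 15336 genes tested 7725 were positive, 7.0% were called higher and 4.92% lower, so signs and calls of so few genes are descriptions. The Cip/Kip median depended on single libraries: it was -0.14 without 2KO replicate 1, -0.63 without 2KO replicate 2, -0.57 without control replicate 1 and -0.21 without control replicate 2. At an unadjusted p under 0.05 there was 1 Ink4 gene of 4, Cdkn2a, and 27.7% of all genes tested. The family medians were not tested against each other, since a permutation of 2 against 2 libraries cannot give a two-sided p below 0.333. Within each library, the FPKM of the Ink4 genes summed to 38.9 and 32.4 in the 2KO-labelled libraries, against 18.7 and 19.97 in control. The Cip/Kip genes summed to 705 and 616 FPKM in the 2KO-labelled libraries, against 765 and 519 FPKM in control, which overlap. Ink4 genes made up 5.22% and 5.0% of all CDK inhibitor FPKM in the 2KO-labelled libraries, against 2.39% and 3.70% in control. Cdkn2a alone was 21.9% and 15.4% of the Ink4 sum in the 2KO-labelled libraries, against 2.55% and 0% in control. On CPM, which the shift in FPKM per CPM does not touch, the shares of Cdkn2a were 11.6% and 9.08% in the 2KO-labelled libraries, against 2.85% and 0% in control. Without Cdkn2a the other Ink4 genes summed to 30.4 and 27.4 FPKM in the 2KO-labelled libraries, against 18.2 and 20.0 FPKM in control. Their share of CDK inhibitor FPKM, also without Cdkn2a, was 4.13% and 4.26% in the 2KO-labelled libraries, against 2.33% and 3.70% in control.

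**Figure D3:**
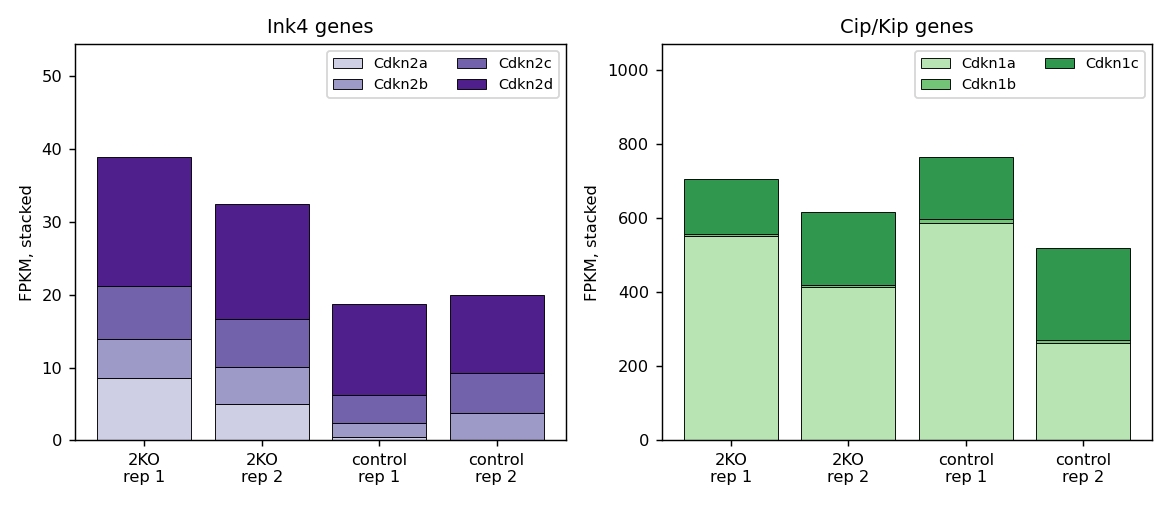
Deposited FPKM of the Ink4 genes (left) and the Cip/Kip genes (right), stacked by gene for each library, with separate y axes. Ink4 sums are 38.9 and 32.4 in the 2KO-labelled libraries and 18.7 and 19.97 in control, whereas Cip/Kip sums overlap between groups.

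Compared per length, the order of the genes by FPKM differed between groups below the 3 most abundant. In the 2KO-labelled libraries the mean FPKM was 483 ± 97.0 for Cdkn1a, 172 ± 33.5 for Cdkn1c and 16.7 ± 1.35 for Cdkn2d (SD, n = 2, as for the means that follow). Below them came Cdkn2c at 6.94 ± 0.544, Cdkn2a at 6.75 ± 2.47, Cdkn1b at 5.73 ± 0.457 and Cdkn2b at 5.25 ± 0.170. Cdkn2a overlapped Cdkn2c, Cdkn1b and Cdkn2b in that order, so these positions are not fixed by the data. At the FPKM per CPM of control replicate 1, Cdkn2a would have 3.41 and 2.36 FPKM in the 2KO-labelled libraries, the lowest of the 7 genes there as in control. In control the mean FPKM was 425 ± 229 for Cdkn1a, 207 ± 56.2 for Cdkn1c, 11.6 ± 1.22 for Cdkn2d and 9.08 ± 0.931 for Cdkn1b. Cdkn2c followed at 4.66 ± 1.15, then Cdkn2b at 2.86 ± 1.30 and Cdkn2a at 0.239 ± 0.338. No neighbouring pair overlapped in control, although Cdkn2c and Cdkn2b came within 3.84 and 3.78 FPKM of each other. The ratio of Cdkn1a to Cdkn1c FPKM varied within groups, at 3.71 and 2.11 in the 2KO-labelled libraries and 3.50 and 1.07 in control. The FPKM of Cdkn2c over that of Cdkn1b was 1.35 and 1.08 in the 2KO-labelled libraries, against 0.395 and 0.649 in control, and that of Cdkn2d over Cdkn1b was 3.27 and 2.60 against 1.28 and 1.27.

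Among the partners of the inhibitors, the gene of a kinase that Ink4 proteins bind, Cdk6, rose, and 2 genes of the later cell cycle fell. Beside 7.0% of all genes higher and 4.92% lower, of 5 genes for D-type cyclins, CDK4 and CDK6, 1 rose, none fell and 4 did not pass (median log2 fold change 0.35). Cdk6 was at 452 and 419 CPM in 2KO-labelled libraries, against 290 and 293 CPM in control (log2 fold change 0.58, standard error 0.14, adjusted p = 0.0231). Ccnd1, singled out after its values were seen, was at 186 and 239 CPM in 2KO-labelled libraries, against 148 and 143 CPM in control (adjusted p = 0.057), and passed under 8 of 15 alternatives. Of 8 later cyclins and CDKs, 2 fell and none rose (median -0.27). Ccna2, the S-phase cyclin, was at 54.2 and 61.8 CPM in 2KO-labelled libraries, against 104 and 131 CPM in control (log2 fold change -1.02, adjusted p = 0.00603). Cdk1, the mitotic kinase, was at 17.0 and 23.2 CPM in 2KO-labelled libraries, against 42.3 and 37.8 CPM in control (log2 fold change -0.99, adjusted p = 0.0236). The calls of Cdk6 and Cdk1 ended without 2KO replicate 1, and on FPKM values no gene of either list was called in these directions.

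Proliferation markers fell in 2 of 14 cases and rose in none (median -0.41), beside 4.92% of all genes lower. Top2a, a topoisomerase of dividing cells, was at 253 and 315 CPM in 2KO-labelled libraries, against 600 and 573 CPM in control (log2 fold change -1.05, adjusted p = 0.00167), and the replication helicase gene Mcm5 was also called lower (log2 fold change -0.83, adjusted p = 0.0372). Without control replicate 1, 5 of the 14 were called lower (6.85% of all genes in that fit), and without control replicate 2 or 2KO replicate 1 the call of Mcm5 ended and 1 was left. Mcm5 was not called on FPKM values either. None of 13 genes for pocket proteins and E2F factors passed (median -0.04). The most abundant, Tfdp1, encodes a partner of E2F factors and had 90.1 and 96.4 CPM in the 2KO-labelled libraries, against 104 and 121 CPM in control. Its relative Tfdp2 had 75.8 and 92.2 CPM in the 2KO-labelled libraries, against 75.3 and 70.0 CPM in control. None of 11 genes for the turnover of p27KIP1 and p21CIP1 passed either (median -0.25), among them Ddb1, a subunit of a ubiquitin ligase, at 316 and 406 CPM in 2KO-labelled libraries, against 434 and 472 CPM in control, and Cul4a, the scaffold of that ligase, at 103 and 108 CPM against 119 and 163 CPM.

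Genes downstream of p53 rose in part. Of 17 tested p53 targets other than Cdkn1a, 6 rose, none fell and 11 did not pass, beside 7.0% of all genes higher; their median log2 fold change was 0.06. Pmaip1, a gene for the pro-apoptotic protein Noxa, was at 89.0 and 78.9 CPM in 2KO-labelled libraries, against 34.4 and 27.2 CPM in control (log2 fold change 1.44, standard error 0.20, adjusted p = 0.00115). Bbc3, which encodes the related protein Puma, was at 20.8 and 26.7 CPM in 2KO-labelled libraries, against 10.4 and 9.68 CPM in control (log2 fold change 1.24, adjusted p = 0.018). Ccng1, Tnfrsf10b, a death receptor gene, and Zmat3 rose by log2 fold changes of 0.88, 1.31 and 0.79, and the remaining called gene was Sesn2 (1.34, with 2.12 without control replicate 1 and 0.86 without control replicate 2). On deposited FPKM values 4 of the targets were called higher with a pseudocount of 1 and 3 with 0.1 (4.09% and 3.31% of all genes in those fits). With no filter on FPKM no target was called, and no other gene either. At an unadjusted p under 0.05 that fit held 20.7% of all genes. It held 33 genes of all the pathway lists together, a count not limited to the p53 targets. Of 5 genes of the ARF and p53 axis itself, Trp53 rose and 4 did not pass. Trp53 was at 356 and 402 CPM in 2KO-labelled libraries, against 255 and 228 CPM in control (log2 fold change 0.65, standard error 0.15, adjusted p = 0.0186). Ccng1 lost its call without 2KO replicate 1, and Bbc3 and Trp53 lost theirs without 2KO replicate 2. On FPKM values Trp53, Zmat3 and Sesn2 were called in none of the 3 fits, and Tnfrsf10b in 1.

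**Figure D4:**
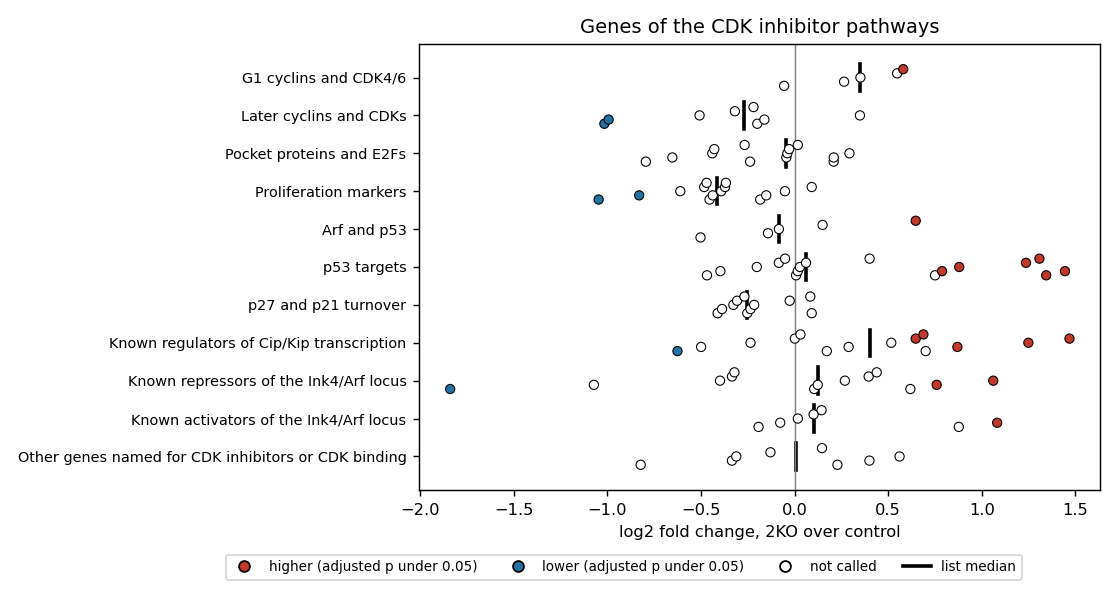
Log2 fold change, 2KO-labelled over control libraries (x axis), of the tested genes of 11 lists around the CDK inhibitors, 1 point per gene, red for higher, blue for lower and white for uncalled genes, with list medians as bars. Called p53 targets lie on the right, with 6 of 17 higher, and called later cyclins, CDKs and proliferation markers on the left.

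Of 14 known regulators of Cip/Kip transcription 5 rose and 1 fell, with a median log2 fold change of 0.40, beside 11.9% of all genes called. Notch1, whose receptor is known to induce p21CIP1 in keratinocytes, was at 770 and 817 CPM in 2KO-labelled libraries, against 346 and 227 CPM in control (log2 fold change 1.47, standard error 0.19, adjusted p = 0.000784). Foxo3, a forkhead factor that can activate Cdkn1b, was at 155 and 143 CPM in 2KO-labelled libraries, against 78.8 and 84.1 CPM in control (log2 fold change 0.87, adjusted p = 0.00628). Smad3, a TGF-beta mediator, rose and its partner Smad4 fell, by log2 fold changes of 0.69 and -0.63 (adjusted p = 0.0291 and 0.0302). Foxo4 was called higher as well, as was Trp53. Smad3, Smad4 and Foxo4 lost their calls without 2KO replicate 1 and also without 2KO replicate 2, and Foxo4 lost its call without control replicate 2 as well. On FPKM values Foxo3, Foxo4, Smad3, Smad4 and Trp53 were called in none of the 3 fits, and Notch1 in 2.

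Of 13 known repressors of the Ink4/Arf locus 2 rose and 1 fell (median 0.12), beside 7.0% and 4.92% of all genes. Bmi1, a Polycomb complex gene first known for silencing this locus, was at 58.9 and 77.0 CPM in 2KO-labelled libraries, against 24.2 and 41.0 CPM in control (log2 fold change 1.06, standard error 0.26, adjusted p = 0.0243). Id1, an inhibitor of basic helix-loop-helix factors, was at 9.75 and 10.9 CPM in 2KO-labelled libraries, against 51.2 and 22.9 CPM in control (log2 fold change -1.84, adjusted p = 0.00786). The size for Id1 rests partly on control replicate 1, without which the log2 fold change was -1.12. Of 7 known activators 1 rose, beside 7.0% of all genes: Kdm6b, a demethylase of the Polycomb mark on histone H3, at 676 and 679 CPM in 2KO-labelled libraries, against 369 and 271 CPM in control (log2 fold change 1.08, standard error 0.17, adjusted p = 0.00226). Bmi1 lost its call without 2KO replicate 2 and in 2 of the 3 FPKM fits. Of 8 other genes named for CDK inhibitors or for CDK binding none passed (median 0.0086). The 2 most abundant were Ciz1, at 64.9 and 97.0 CPM in 2KO-labelled libraries, against 64.1 and 58.7 CPM in control, and Ccndbp1, at 42.2 and 32.0 CPM against 45.4 and 48.2 CPM.

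Some list counts were higher under other settings, and calls over all genes moved too. Of all 15336 genes in the main fit, 1073 were higher and 754 lower. With DESeq2 these were 1412 and 1009 of 14741, with limma-voom 1112 and 856 of 15336. With no filter on low counts they were 1554 and 1242 of 19211, and with a filter at 1 CPM 1151 and 787 of 14336. Upper-quartile scaling gave 1164 and 611 of 15336, and the replicate block 1156 and 880 of 15336. Calls over all genes with a library left out moved as well, as given further below. The list counts that follow are thus not read as results about the lists. Of the D-type cyclin and CDK4/6 genes, 2 were called higher without control replicate 1, and also with upper-quartile scaling, DESeq2, limma-voom and other filters. The ARF and p53 axis had 1 gene called lower without control replicate 2, and the repressors had 2 without control replicate 2 or 2KO replicate 2, as both had with DESeq2, limma-voom, no filter on low counts and the replicate block. The regulators of Cip/Kip transcription had 2 called lower without control replicate 2 or with no filter. In single fits, 1 p53 target and 1 turnover gene were called lower without control replicate 1, and 1 gene for pocket proteins and E2F factors without 2KO replicate 2.

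Of 93 tested genes within 500 kb of a member 7 were called, or 7.53%, beside 11.9% of all genes. Near Cdkn2a, by distance between starts, 1 of 28 annotated genes other than Cdkn2b was tested. It was Mtap, a gene of methionine salvage, at 19.7 and 21.6 CPM in 2KO-labelled libraries, against 17.3 and 25.6 CPM in control (adjusted p = 0.932). None of 7 tested neighbours of Cdkn2c, 20 of Cdkn1a or 15 of Cdkn1b passed. Near Cdkn1c, in an imprinted domain, 3 of 17 rose and none fell. These were Mrgpre, at 3.01 and 1.34 CPM in 2KO-labelled libraries and 0 in both control libraries, which allow up to 0.1471 and 0.176 CPM, Tnfrsf22 (log2 fold change 1.64) and Cd81 (0.64). With no count in control, Mrgpre met the filter only through the 2KO-labelled libraries, so it could enter this count only as a rise. Near Cdkn2d, 2 of 33 rose, Icam1 and Raver1, and 2 fell, Dnmt1 and Spc24. Of these neighbours Icam1 kept its call whichever library was left out. The call of Mrgpre ended without 2KO replicate 1, those of Tnfrsf22, Cd81 and Raver1 without 2KO replicate 2, that of Dnmt1 without 2KO replicate 1 or control replicate 2, and that of Spc24 without 2KO replicate 2 or control replicate 2. On FPKM values Tnfrsf22, Dnmt1 and Spc24 were called in none of the 3 fits.

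For Cdkn1b, the called member, the 3 genes with the nearest profile were Polr3g, Atp8b2 and Enox2, at Euclidean distances of 0.0235, 0.0496 and 0.0627 between log2 CPM profiles centred over the 4 libraries. With 4 libraries such a likeness is a description of these libraries.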

How the data were processed

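The authors deposited, for each of 4 libraries, a whole-number read count per gene, and an FPKM value per gene and library in 1 table. The submitters' processing notes name TopHat2 2.0.13, Cufflinks 2.2.1, HTSeq 0.6.1, DESeq2 1.6.3 and the build mm10; which tool made which value, and with what annotation and strand setting, is not given in the sources used here. Per the labels' protocols, RNA was amplified before 100-nucleotide single-read sequencing, so reads are not independent molecules and intervals and limits for a count of 0 cover counting error only. The main test, two-sided, was the quasi-likelihood test of edgeR 4.0.16 (R 4.3.3) on genotype, with TMM scaling and the filterByExpr filter; p-values were adjusted by Benjamini-Hochberg over the 15336 genes tested, with a threshold of 0.05. An adjusted p with no tool beside it comes from that test, and standard errors come from its F statistic. The biological coefficient of variation was 0.313. A chi-square of counts between replicates was 22.66 per degree of freedom in the 2KO-labelled group and 28.67 in control, beyond counting error, so neither pair was one library under 2 names. Alternatives were RLE and upper-quartile scaling, DESeq2 1.42.0, limma-voom (limma 3.58.1), no filter or a filter at 1 CPM in 2 libraries, a block on replicate number, counts without Rn45s, Malat1 and Lars2, limma-trend on log2(FPKM + 1) or log2(FPKM + 0.1) for genes of mean FPKM at least 1 or all genes, and each library left out. A fit with 1 library left out sets 2 libraries against 1, so its p-values hold no scatter from the group with 1 library. Steps were tested on simulated data. Coordinates are from GENCODE M21, on the same build. The members and lists were chosen with earlier results of these data known. Named are all members, Ring1 and Rnf2, the called genes of each list (at most 5 by smallest p, or the 2 most abundant where none was called), called neighbours, and the 3 nearest profiles. One called gene is not reported here by name. List counts are descriptions with no set test.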

Additional observations from a re-analysis of the deposited data

How the results depend on the processing

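Each of the 7 genes was compared under 15 alternatives, and 104 of the 105 fold changes kept their direction; 88 also kept their side of the threshold. Cdkn1b lost its call with RLE scaling (log2 fold change -0.86, adjusted p = 0.0505), upper-quartile scaling (-0.82), without Rn45s, Malat1 and Lars2 (-0.85) and on FPKM values (-0.58 with a pseudocount of 1, with or without the filter, and -0.65 with 0.1); with each library left out it ranged from -0.98 to -0.77. Cdkn2a was called with DESeq2 (3.58), with no filter on low counts (3.53) and on filtered FPKM values (2.64 and 4.79); with each library left out it ranged from 2.60 to 9.05, the last a fitted value against a control at 0. In the same way Cdkn1a ranged from -0.21 to 0.94, with a reversed direction without control replicate 2 (-0.21), and Cdkn1c from -0.63 to -0.073. Mtap, uncalled throughout, turned positive on FPKM values (0.11 with a pseudocount of 1, with or without the filter, and 0.12 with 0.1) and without control replicate 2 (0.27) or 2KO replicate 1 (0.011), within -0.28 to 0.27 with each library left out. The cause was not tested.

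Of all genes, 1073 were higher and 754 lower. With no filter on low counts 1242 were lower. On filtered FPKM values 507 were higher and 204 lower with a pseudocount of 1, and 410 and 171 with 0.1; with no filter limma-trend called 0 higher and 0 lower, with 3764 at an unadjusted p under 0.05, against 4833 for edgeR with no filter on low counts. With each library left out, 839 to 1643 genes were higher. Of the genes of the pathway lists 15 were higher and 6 lower, against 7 and 2 on filtered FPKM with a pseudocount of 1, 5 and 2 with 0.1, and 0 and 0 with no filter; with each library left out 9 to 20 were higher and 3 to 11 lower. These list counts are not shares, and in the main fit 7.0% of all genes tested were higher and 4.92% lower. Calls over all genes moved between the same fits, as given above. The list counts are thus descriptions, and an excess over all genes was not tested. The Ink4 median ranged from 0.62 to 1.03 and the Cip/Kip median from -0.63 to -0.14 over the 15 alternatives, without a change of sign. With the replicate number as a block, Cdkn1b kept its call (-0.87, adjusted p = 0.0469) and Cdkn2a stayed uncalled (4.20, adjusted p = 0.0562); deviations of libraries with the same number were not correlated (-0.0232), so the numbers do not show a pairing. Control holds 12 counts of Cdkn2a in all, which bounds the precision of its fold change.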
